A study of Mus musculus with 4 samples.

Results

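Early astrocyte genes are described here as 10 genes that mark astrocytes as they begin to form in the cortex: Apoe, Aqp4, Fgfr3, Gja1, Aldh1l1, Slc1a2, Gfap, S100b, Sparcl1 and Aldoc. They were taken by gene name from the 55414 genes of the deposited expression table, and all 10 matched 1 gene each. The libraries held RNA of the cerebral cortex from C57BL/6J mice on postnatal day 1. Libraries labelled cKO (replicates 2 and 3) came from Mkk7 flox/flox mice that carried Emx1-Cre, and libraries labelled Control (replicates 2 and 3) came from Mkk7 flox/flox mice. Both groups thus share the floxed alleles and differ by the Cre transgene, and no group carried the Cre without floxed alleles. Emx1-Cre acts where Emx1 is expressed, in dorsal telencephalic progenitors, which give rise to cortical excitatory neurons and to cortical astrocytes. MKK7, the kinase whose gene is floxed, activates the JNK kinases.

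Astrocytes arise from radial glia after the main period of neuron production. Cytokine signals through JAK and STAT, BMP signals, Notch and the nuclear factor I proteins promote this step. The cells then acquire transporters, gap junctions, water channels and secreted lipid carriers, and several of these genes continue to increase after birth. Many of the RNAs are shared with other cells: radial glia hold Aldoc and Fgfr3, microglia hold Apoe, meningeal fibroblasts hold Gja1, and neurons and blood vessels hold Sparcl1.

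Library totals lay between 19421470 and 22511175 counts. The Y-linked gene Ddx3y had 985 counts in cKO 3 and 0 in each of the others. The animal behind cKO 3 was therefore male. The gene of that kinase, Map2k7, stood at 47.9 and 48.2 counts scaled to a library of 1000000 (CPM) in the libraries labelled cKO, against 38.4 and 30.4 CPM in Control. Which exons were floxed is not given, so whole-gene values cannot check the genotypes, and each direction rests on the labels. Tbr1, which encodes a transcription factor of cortical excitatory neurons, was present in every library, at 108 and 106 CPM in cKO and 97.2 and 88.0 CPM in Control.

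Sequences just upstream of the annotated starts are shown for Gja1, Apoe and Aldoc, the genes in which the AP-1, SOX and STAT motifs searched here were found. AP-1 acts downstream of JNK, and STAT and SOX factors act in astrocyte formation. Windows of 250 bases came from RefSeq (GRCm38.p6, a build other than that of the counts) and were matched by symbol for 8 of the 10 genes, with 12 windows in all; Aqp4 and Sparcl1 were not used here. Capitals mark the motifs searched on both strands: TGANTCA for AP-1, TTCNNNGAA for STAT, TTGGC, an arm of the nuclear factor I site, and ACAAAG for SOX.
Gja1, chr10:56377050-56377299, plus strand: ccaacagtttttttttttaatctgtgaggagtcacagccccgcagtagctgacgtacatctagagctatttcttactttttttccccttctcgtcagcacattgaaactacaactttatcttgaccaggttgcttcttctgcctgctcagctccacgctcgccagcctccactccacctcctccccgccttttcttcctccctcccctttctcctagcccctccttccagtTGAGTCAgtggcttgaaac
Apoe, chr7:19699189-19699438, minus strand, the first of 3 windows: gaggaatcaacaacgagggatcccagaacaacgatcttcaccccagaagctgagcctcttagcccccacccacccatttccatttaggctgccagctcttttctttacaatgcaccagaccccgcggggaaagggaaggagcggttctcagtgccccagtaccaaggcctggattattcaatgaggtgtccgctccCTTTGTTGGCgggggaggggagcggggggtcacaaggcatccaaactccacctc
Aldoc, chr11:78323948-78324197, plus strand, the second of 2 windows: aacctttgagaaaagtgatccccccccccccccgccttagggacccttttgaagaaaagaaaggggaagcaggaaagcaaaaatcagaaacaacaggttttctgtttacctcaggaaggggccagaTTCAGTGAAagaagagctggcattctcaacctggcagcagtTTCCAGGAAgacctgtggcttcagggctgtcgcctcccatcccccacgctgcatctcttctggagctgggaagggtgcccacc

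The AP-1 motif lay 19 to 13 bases before the start of Gja1, and 1 of the 12 windows held it. AP-1 motifs were found in 6.75% of all 32817 windows of this length. STAT motifs occurred in 1 of the 12 windows, that of Aldoc, against 7.01% of all windows. In the Apoe window the SOX match (CTTTGT) and the TTGGC match overlap by 1 base. SOX motifs were in 1 of the 12 windows, against 16.5% of all windows. TTGGC was found in 5 of the 12 windows, in Apoe, Slc1a2, S100b and Aldoc, against 41.5% of all windows. A match is a string of letters and not a measured binding site.

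The 10 genes spanned a wide range of levels. In transcripts scaled to a total of 1000000 (TPM), the authors' values per transcript length, the mean over the 4 libraries was 1096 ± 258 for Apoe, 225 ± 39.4 for Aldoc, 177 ± 22.8 for Sparcl1, 46.7 ± 6.30 for Gja1 and 37.4 ± 8.11 for Aldh1l1 (SD, n = 4). Below these came Gfap at 24.6 ± 6.27 TPM, Fgfr3 at 10.4 ± 4.22 TPM, Aqp4 at 9.35 ± 4.58 TPM and Slc1a2 at 4.77 ± 1.25 TPM (SD, n = 4). S100b, at 0.462 TPM, was nearly absent. Apoe was above 99.4% of all tested genes, while Slc1a2, whose glutamate transporter is abundant in the mature brain, was above 35.4%. Ranges over the libraries overlapped for some neighbours in this order. These were Aldoc and Sparcl1, Gja1 and Aldh1l1, Gfap and Fgfr3, Fgfr3 and Aqp4, and Aqp4 and Slc1a2. Within every library, however, Aldoc stood above Sparcl1, Gfap above Fgfr3 and Aqp4 above Slc1a2. The order of Gja1 and Aldh1l1 turned in Control 2, and that of Fgfr3 and Aqp4 turned in Control 3.

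Of the 10 genes, 9 passed the filter on low counts and were tested, and S100b did not. Levels were lower in cKO than in Control without overlap for 5 of the 9: Apoe, Aqp4, Fgfr3, Aldh1l1 and Gfap. Gja1 was higher without overlap, and Slc1a2, Sparcl1 and Aldoc overlapped. None of the 9 passed the edgeR quasi-likelihood test adjusted over 17017 genes at a threshold of 0.05, where 0.047% of all genes were called; adjusted p-values lay between 0.242 and 0.985. At an unadjusted p below 0.05 there were 5 lower and 1 higher, against 5.66% of all genes lower and 5.28% higher. Groups without overlap made up 22.2% of all genes for lower and 22% for higher in cKO. The median log2 fold change of the 9 was -0.49, against -0.002 over all genes tested, and 7 of the 9 were negative, against 50.2% of all genes. Without cKO 2 that median was -0.29, and without Control 2 it was -0.30. Without cKO 3, the library from a male, it was -0.40, with Apoe at -0.52, Aqp4 at -0.74 and Aldh1l1 at -0.40. DESeq2 called 1 of the 9, Apoe, and limma-voom called 0. In bulk tissue, fewer cells of a type and less RNA per cell cannot be told apart.

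**Figure D1:**
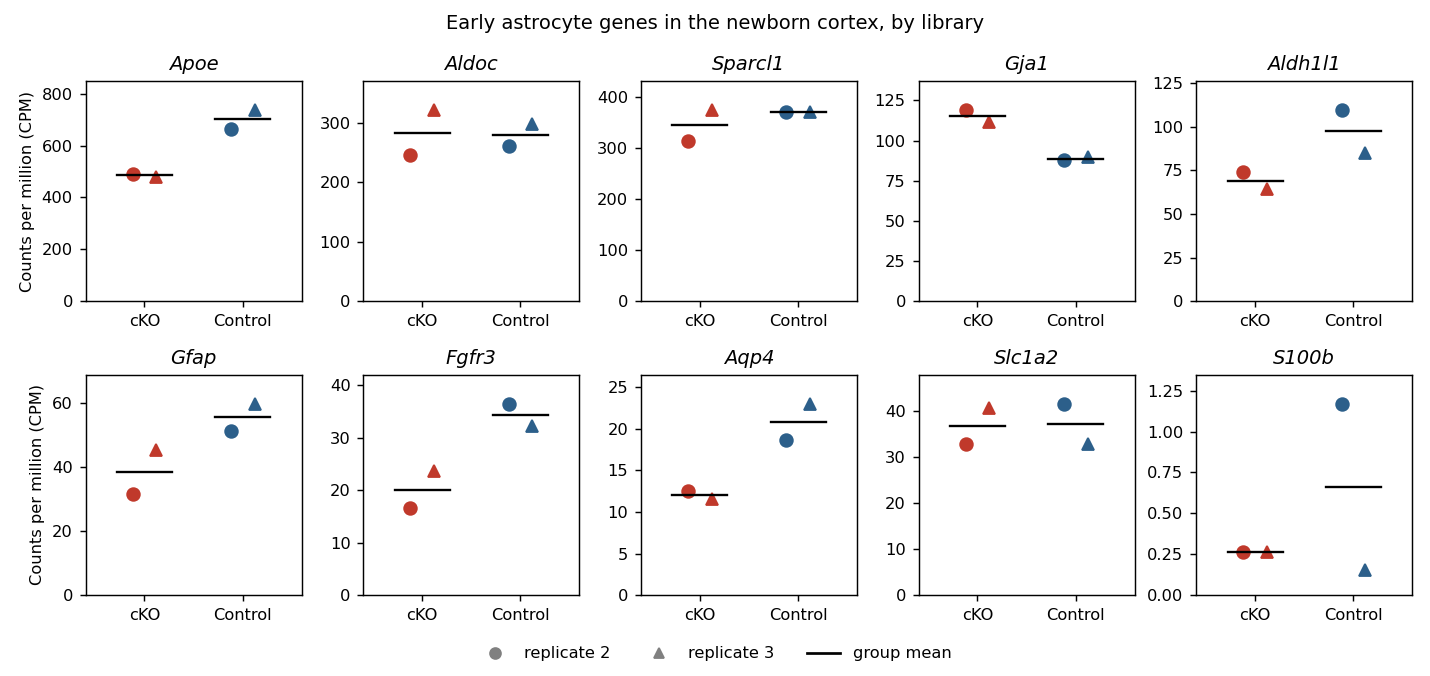
CPM of each of the 10 genes (y axis, from 0) in the 2 cKO and 2 Control libraries, ordered by mean TPM; points are libraries (circle, replicate 2; triangle, replicate 3) and lines are group means. Apoe, Aldh1l1, Gfap, Fgfr3 and Aqp4 stood lower in both cKO libraries, Gja1 stood higher, and the others overlapped.

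Genes of striatal neurons, which lie next to the cortex, were lower in the libraries labelled cKO, and choroid plexus genes varied between libraries of each group. Of 15 striatal neuron genes 0 were positive, with a median of -1.97. At an unadjusted edgeR p below 0.05, 12 were lower, against 5.66% of all genes. The summed level of these genes was 210 to 226 CPM in cKO and 461 to 646 CPM in Control, and none was at 0 counts. Rxrg, the only one past the edgeR threshold, was at 3.37 and 7.84 CPM in cKO and 87.3 and 63.5 CPM in Control (edgeR adjusted p = 0.0414). The striatum holds astrocytes that Emx1-Cre largely does not reach, and the part of such tissue in the astrocyte values was not tested. The choroid plexus and ependyma list, 12 genes in all, covers cells of which some share S100b and Aqp4 RNA. It summed to 387 and 28.7 CPM in cKO 2 and cKO 3, against 826 and 32.1 CPM in Control 2 and Control 3. Both libraries numbered 2 thus stood high, and most of their sums was a single gene, Ttr. Ttr was at 335 and 4.99 CPM in cKO 2 and cKO 3, against 763 and 7.31 CPM in Control 2 and Control 3. Of that list Prlr was at 0 counts in both cKO libraries. The part of choroid plexus and ependymal cells in the values of the early astrocyte genes was not tested. Dorsal telencephalon genes were positive in 7 of 8, with a median of 0.41 and none called. The summed level of that list was 1254 to 1260 CPM in cKO and 895 to 1020 CPM in Control. Neurod6, at 730 and 720 CPM in cKO and 480 and 587 CPM in Control, was the largest part of each sum. The list shares Neurod6 and Tbr1 with the cortical projection neuron list given below. Its relation to the astrocyte values was not tested.

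Apoe encodes the main lipid carrier that astrocytes secrete (ENSMUSG00000002985.17; chromosome 7, 19430034 to 19433113, GRCm39). Apoe was at 490 and 479 CPM in cKO 2 and cKO 3, against 664 and 738 CPM in Control 2 and Control 3. Both cKO libraries lay close together and below both Control libraries. The group means were 485 ± 7.86 CPM in cKO and 701 ± 52.3 CPM in Control (SD, n = 2 each). The fitted ratio of cKO to Control was 0.692, or -0.53 on the log2 scale (SE 0.10), with an edgeR adjusted p of 0.242. Apoe had the smallest p of the 9 tested genes and was number 60 of all genes ranked by p. With DESeq2, which called 0.617% of all genes as lower, its adjusted p was 0.00145; over all alternatives that adjusted p ranged from 0.00145 to 0.919. Microglia, which also hold Apoe RNA, had 3 positive and 11 negative of 14 tested marker genes, none called and none at 0 counts, with a median log2 fold change of -0.19. The summed level of that list was 226 to 284 CPM in cKO and 269 to 291 CPM in Control, and its part in the Apoe values was not tested.

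The genes of the astrocyte membrane did not share a direction. Aqp4 encodes the water channel of the astrocyte endfeet on blood vessels (chromosome 18, 15522553 to 15544039). Aqp4 was at 12.5 and 11.6 CPM in cKO 2 and cKO 3, against 18.7 and 23.0 CPM in Control 2 and Control 3. Its log2 fold change was -0.79 (SE 0.24, edgeR adjusted p = 0.363), with only 237 to 454 counts in a library. Endothelial and pericyte markers, the other side of the endfoot, were positive in 12 of 15 tested genes, with a median of 0.28 and none called, and their summed level was 482 to 511 CPM in cKO and 448 to 454 CPM in Control; none was at 0 counts, and their part in the Aqp4 values was not tested.

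Fgfr3 encodes a fibroblast growth factor receptor of progenitors and young astrocytes (chromosome 5, 33879018 to 33894412). Fgfr3 was at 16.6 and 23.6 CPM in cKO 2 and cKO 3, against 36.5 and 32.2 CPM in Control 2 and Control 3. The groups did not overlap, but the cKO libraries differed from each other more than for Apoe or Aqp4 (log2 fold change -0.77, SE 0.23, edgeR adjusted p = 0.365). Leaving out cKO 3 put the value at -1.05 and leaving out cKO 2 put it at -0.54.

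Gja1, which encodes connexin 43, the main gap junction protein of astrocytes and radial glia, was the exception (chromosome 10, 56253426 to 56278609). Gja1 was at 119 and 111 CPM in cKO 2 and cKO 3, against 87.8 and 89.8 CPM in Control 2 and Control 3. Both cKO libraries lay above both Control libraries, and the replicates of each group were close (log2 fold change 0.38, SE 0.12, edgeR adjusted p = 0.398). Without each library in turn it stayed positive, between 0.33 and 0.42. Meningeal fibroblasts also hold connexin 43, and 12 of 14 tested genes of that list were positive, with a median of 0.38, none called and none at 0 counts. The summed level of the fibroblast list was 599 to 679 CPM in cKO and 444 to 546 CPM in Control; its part in the Gja1 values was not tested.

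Slc1a2 encodes GLT-1, the glutamate transporter that becomes dominant as astrocytes mature (chromosome 2, 102489004 to 102621129). Slc1a2 was at 32.8 and 40.7 CPM in cKO 2 and cKO 3, against 41.7 and 32.8 CPM in Control 2 and Control 3. The 2 groups covered nearly the same range (log2 fold change -0.02, SE 0.21, edgeR adjusted p = 0.985), and the sign turned under upper-quartile scaling, on the TPM scale and when cKO 2 or Control 2 was left out.

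The 2 metabolic enzymes differed from each other in pattern. Aldh1l1, a folate enzyme widely used as a general astrocyte marker (chromosome 6, 90463409 to 90577185), was at 73.8 and 64.2 CPM in cKO 2 and cKO 3, against 110 and 84.7 CPM in Control 2 and Control 3. Every cKO value was below every Control value, with a wide gap between the Control libraries (log2 fold change -0.49, SE 0.17, edgeR adjusted p = 0.399). Leaving out Control 2 put the value at -0.30. Aldoc, the brain form of the glycolytic enzyme aldolase (chromosome 11, 78213794 to 78218607), was at 245 and 322 CPM in cKO 2 and cKO 3, against 260 and 298 CPM in Control 2 and Control 3. Both Control libraries lay between the cKO libraries (log2 fold change 0.02, SE 0.15, edgeR adjusted p = 0.971), and the sign turned without cKO 3 and without Control 2.

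Gfap encodes the astrocyte intermediate filament and is a target of STAT signalling (chromosome 11, 102778162 to 102791738). Gfap was at 31.7 and 45.4 CPM in cKO 2 and cKO 3, against 51.4 and 59.8 CPM in Control 2 and Control 3. The highest cKO and the lowest Control value were close to each other (log2 fold change -0.53, SE 0.21, edgeR adjusted p = 0.439), and cKO 2 set much of the size: the value was -0.29 without it and -0.81 without cKO 3.

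S100b, which encodes a calcium-binding protein of more mature astrocytes (chromosome 10, 76089687 to 76096993), had 5 and 6 counts in cKO 2 and cKO 3, against 23 and 3 counts in Control 2 and Control 3. Control 2 alone stood apart, and the other 3 libraries were alike. S100b entered the fits without the filter and without cKO 2, cKO 3 or Control 3; without the filter its log2 fold change was -1.32 (SE 1.35, edgeR adjusted p = 0.822). Its locus overlaps Dip2a on the opposite strand, which had 371 and 380 counts in cKO and 555 and 506 counts in Control, and the library kit does not mark strand, so reads of the shared stretch cannot be told apart.

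Sparcl1 encodes hevin, a secreted matrix protein that promotes synapse formation (chromosome 5, 104226977 to 104261599). Sparcl1 was at 315 and 376 CPM in cKO 2 and cKO 3, against 371 and 372 CPM in Control 2 and Control 3. The value of cKO 3 was above both Control libraries and that of cKO 2 below them (log2 fold change -0.11, SE 0.12, edgeR adjusted p = 0.784). Its sign turned without cKO 2, at 0.02.

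**Figure D2:**
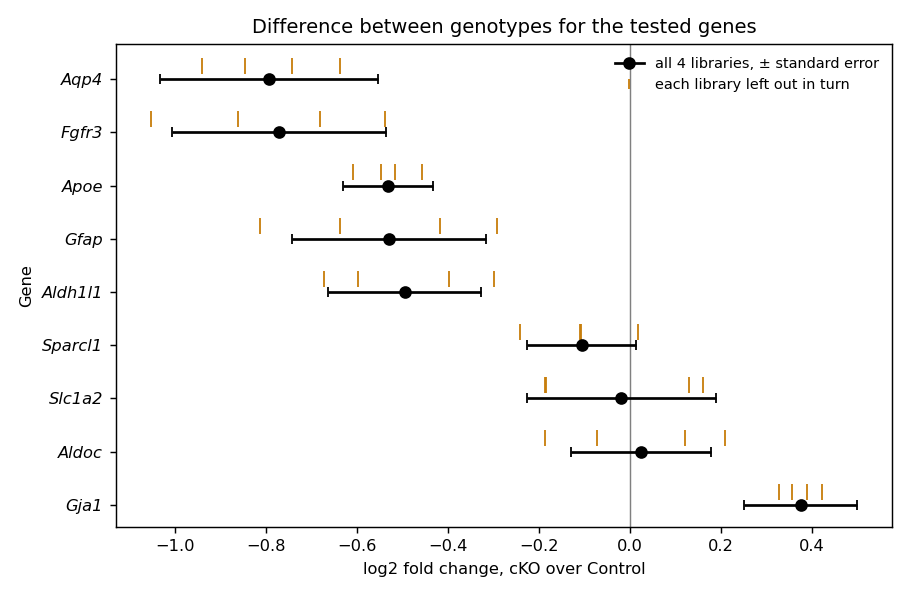
Log2 fold change of cKO over Control (x axis) for the 9 tested genes; circles are the fit on all 4 libraries with bars of 1 standard error, and ticks above them are the fits with each library left out. Apoe, Aqp4, Fgfr3, Aldh1l1 and Gfap stay below 0 and Gja1 stays above it in every fit shown, while the ticks of Sparcl1, Slc1a2 and Aldoc fall on both sides.

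Within the set, cKO 2 held the lowest value for 5 of the 9 tested genes and cKO 3 for 3. The median log2 deviation of the 9 genes from their own means was -0.19 in cKO 2 and -0.02 in cKO 3, against 0.18 in Control 2 and 0.09 in Control 3. The gap between the 2 cKO libraries was thus larger than that between the Control libraries. The 5 genes closest to this median profile, by root mean square difference of log2 deviations over the 4 libraries (0.0170 to 0.0232), were Gmcl1, Ndrg2, Tln2, Hdac7 and Ftsj3. Of 9625 genes ranked, 803 lay within 0.1 of the profile, so many genes besides these 5 lie near it, though less near. The profile is a median taken library by library, and single members depart from it. In cKO 3, where it was -0.02, Aqp4 was at -0.43 and Aldoc at 0.20.

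A second quantity, the transcript length implied by the ratio of counts to TPM, was steady for most of the genes and not for Aqp4. This apparent length depends in part on which isoforms the authors' quantification assigned reads to. It was scaled on 787 genes with a single transcript. For those genes the ratio of the highest to the lowest library had a median of 1.04, so small ratios also occur without a change of isoforms. For Aqp4 it was 3831 and 2749 bases in cKO 2 and cKO 3, against 2188 and 2499 bases in Control 2 and Control 3. The apparent length was above both Control values in both cKO libraries, most of all in cKO 2. The ratio of the highest to the lowest value was 1.75. This was above that of 97.9% of 11018 genes with at least 100 counts in every library. Those genes were not matched to Aqp4 for its 237 to 454 counts in a library or its 12 transcripts. Given these lengths, the Aqp4 level in cKO relative to Control was 0.577 in CPM and 0.413 in TPM. Fgfr3 and Slc1a2 had ratios of 1.28 and 1.26 with overlapping groups, and the median over the 11018 genes was 1.08. Aldh1l1, Gfap, Aldoc and Sparcl1 had slightly shorter apparent lengths in both cKO libraries without overlap, the direction opposite to Aqp4. Their ratios were smaller, at 1.13, 1.07, 1.07 and 1.03. S100b, with 1 transcript and few counts, was split in the same direction, with a ratio of 1.04. The share of all genes with such a split was not computed, so it is not read as a trait of these genes. For Gja1 the ratio was 1.02, and for Apoe it was 1.05.

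**Figure D3:**
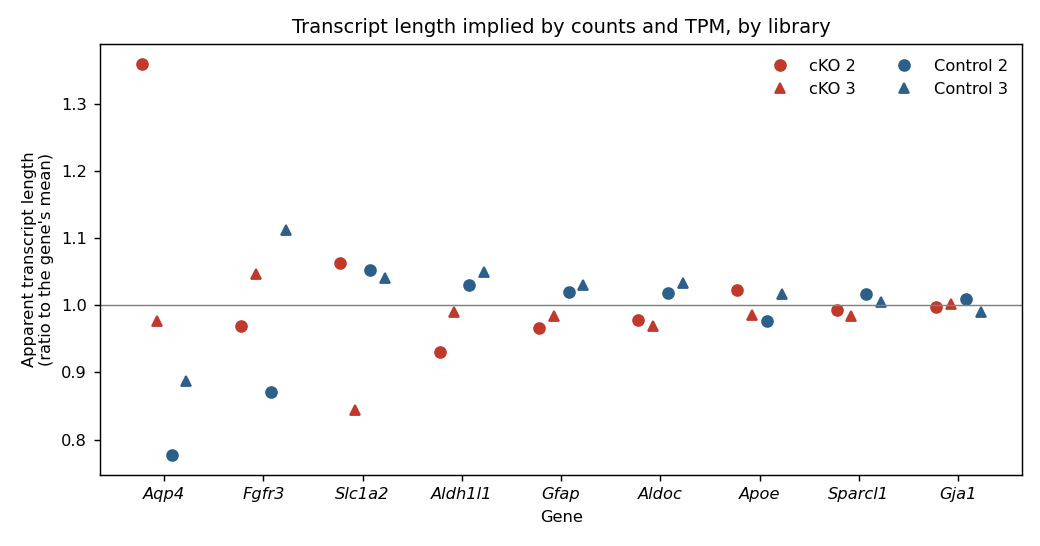
Apparent transcript length of each tested gene (y axis, ratio to the gene's mean over the 4 libraries) by library; red, cKO; blue, Control; circle, replicate 2; triangle, replicate 3. Aqp4 has the widest spread, with 3831 bases in cKO 2 and 2188 bases in Control 2, and Gja1 the narrowest.

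Other genes of astrocytes, in 3 lists that hold none of the 10, were also more often negative than positive. Of 51 tested genes 38 were negative and 13 positive, against 50.2% of all genes negative, with a median log2 fold change of -0.19 and none past the edgeR threshold. At an unadjusted p below 0.05, 9 were lower and 2 higher, where 5.66% of all genes were lower and 5.28% higher. Of transport and surface genes, 14 of 18 were negative, with a median of -0.20. Gpr37l1, which encodes an astrocyte receptor, was at 3.32 and 2.93 CPM in cKO and 7.79 and 6.45 CPM in Control (log2 fold change -1.19, SE 0.37). Ttyh1, of a chloride channel family, had a value of -0.43 (SE 0.13). Cldn10, which encodes a claudin, had one of -0.83 (SE 0.31). Of secreted and matrix genes, 12 of 17 were negative, with a median of -0.15. The proteoglycan genes Bcan and Cspg5 stood at -0.52 (SE 0.12) and -0.36 (SE 0.10) on the log2 scale, and Tnc, which encodes the matrix protein tenascin C of radial glia and astrocytes, had 0.44 (SE 0.15). Of metabolic genes, 12 of 16 were negative, with a median of -0.16. These included Gstm1, a glutathione transferase gene, at -0.48 (SE 0.13), the mitochondrial glutamate carrier gene Slc25a18 at -0.91 (SE 0.29) and the lipid enzyme gene Acsbg1 at -0.51 (SE 0.22).

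Genes that drive astrocyte formation pointed in both directions. Of 15 transcription factor genes 7 were positive and 8 negative, with a median of -0.07 and none past the edgeR threshold. Nfia, which encodes the nuclear factor I protein that starts astrocyte formation, was at 78.7 and 82.4 CPM in cKO and 47.8 and 40.5 CPM in Control (log2 fold change 0.87, SE 0.16, edgeR adjusted p = 0.235). Both cKO libraries lay well above both Control libraries. Nfib, a second gene of that family, was at 485 and 488 CPM in cKO and 335 and 354 CPM in Control (log2 fold change 0.50, SE 0.10, edgeR adjusted p = 0.264). Lhx2, which encodes a progenitor factor that delays astrocyte formation in the mouse hippocampus, had 0.38 (SE 0.14). Of 17 tested genes of gliogenic signalling 13 were positive, with a median of 0.16 and none past the threshold. Stat3, the factor through which cytokines induce Gfap, was at 72.9 and 59.9 CPM in cKO and 35.7 and 35.6 CPM in Control (log2 fold change 0.90, SE 0.17, edgeR adjusted p = 0.242). Bmpr1a, which encodes a BMP receptor, had 0.87 (SE 0.20). Egfr, which encodes the epidermal growth factor receptor of late progenitors, stood the other way, at 7.90 and 6.13 CPM in cKO and 15.3 and 14.5 CPM in Control (log2 fold change -1.09, SE 0.28). Nfia and Nfib are also expressed in cortical neurons. The cortical projection neuron list was positive in 12 of 15 genes, with a median of 0.18, none called and none at 0 counts, and its summed level was 3018 to 3048 CPM in cKO and 2457 to 2784 CPM in Control. The part of those neurons in the Nfia and Nfib values was not tested.

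Of 13 tested genes induced in reactive astrocytes, 8 were positive and none passed the edgeR threshold, with a median of 0.36. Aspg stays the lowest value at the bound that 3 counts over both cKO libraries allow, so that bound cannot move the median. Without overlap between groups, 7 were higher and 2 lower in cKO, against 22% of all genes higher and 22.2% lower. Hspb1, a small heat shock protein gene, and Cp, which encodes ceruloplasmin, stood at 1.11 (SE 0.32) and 1.23 (SE 0.38) on the log2 scale, while Gfap, the classic gene of that state, had -0.53. Aspg had 0 counts in both cKO libraries, against 1.32 and 2.54 CPM in Control. Several of the 13 had low counts, and the list shares Vim with the radial glia list. The meningeal fibroblast list and the endothelial and pericyte list had positive medians as well, of 0.38 and 0.28. The part of other cell types in the values of the reactive astrocyte list was not tested. Of 14 radial glia genes 6 were positive and 8 negative, with a median of -0.11 and none called. Among these, Nes, which encodes nestin, had 0.40 (SE 0.15), and the Notch target Hes5 had -0.42 (SE 0.16). The oligodendrocyte lineage, the other glial lineage of the cortex, had 7 of 13 positive and a median of 0.10, and none was called.

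**Figure D4:**
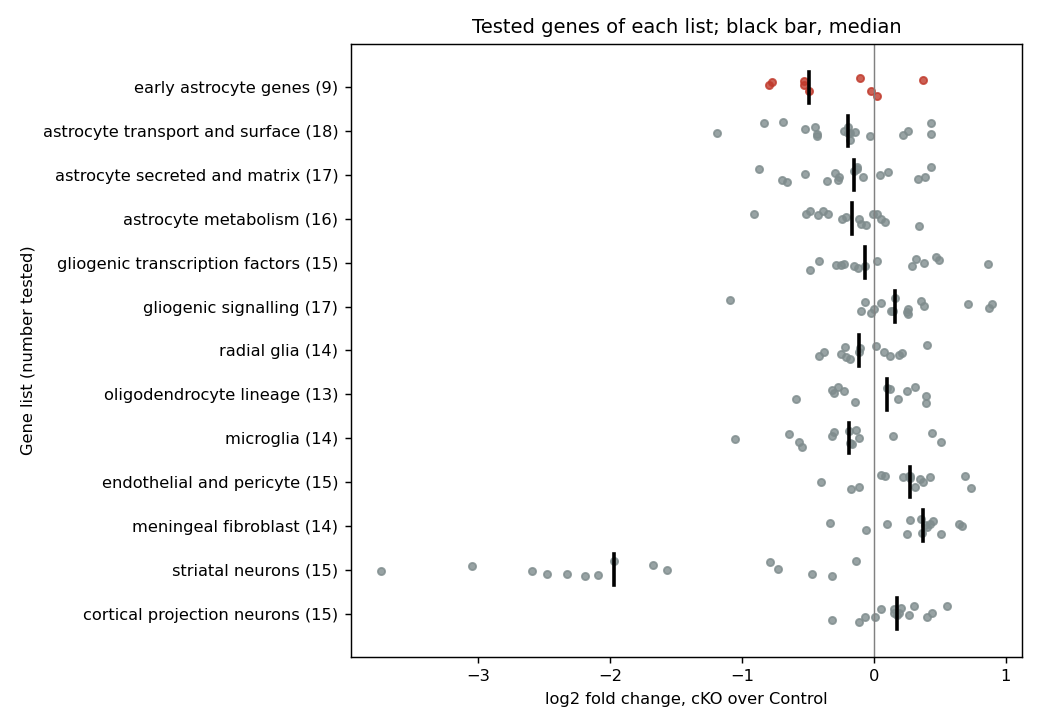
Log2 fold change of cKO over Control (x axis) for the tested genes of each list shown (rows, number of genes in brackets). Points are genes, red for the 9 early astrocyte genes, and black bars are medians. The reactive astrocyte, choroid plexus and ependyma, and dorsal telencephalon lists are not shown. The early astrocyte genes have a median of -0.49, the 3 other astrocyte lists lie between -0.15 and -0.20, and the striatal list at -1.97 is the lowest shown.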

How the data were processed

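The deposited table held estimated counts and TPM per gene for 4 libraries, made with SMART-Seq v4 per the labels' protocols; the authors used DRAGEN and GRCm39, per the submitters' processing notes, with version and settings not given in the sources used here. The deposited TPM columns each summed to 1000000. Estimated counts were rounded, and edgeR's default filter kept 17017 genes. Genotypes were compared with edgeR 4.0.16 (R 4.3.3; TMM scaling, quasi-likelihood test, Benjamini-Hochberg adjustment over all genes tested, threshold 0.05); the procedure was tested on simulated data. Standard errors were taken from the log2 fold change and the F statistic. Alternatives used DESeq2 1.42.0, limma 3.58.1, other scalings and filters, a replicate block, left-out libraries, and log2(TPM + 1) or log2(TPM + 0.1).

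The cKO libraries differ in sex and so came from different animals. For the Control libraries nothing in the labels says so, and p-values reflect only how these libraries differ, which may be technical in part. Libraries of a group were not duplicates (chi-square per degree of freedom 27.7 for cKO and 12.8 for Control). The members and gene lists were chosen with earlier results of these data known, so lists are described by counts and medians without a set test. All members, and at most the 3 genes with the smallest p of each of 15 lists, were named, and for likeness the 5 nearest protein-coding genes with a mean of at least 10 CPM (log2 of CPM + 0.5). Ttr was named besides these for its part in a summed level, and Map2k7 and Tbr1 as checks of the libraries. The deposited gene length, in bases, was used only to scale the apparent transcript length, over single-transcript genes of at least 1000 bases with 100 counts in every library.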

Additional observations from a re-analysis of the deposited data

How the results depend on the processing

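The log2 fold changes of Apoe, Aqp4, Fgfr3, Aldh1l1, Gfap and Gja1 kept their sign under all 14 alternatives. Slc1a2 turned to 0.0207 with upper-quartile scaling, 0.0760 with limma on log2(TPM + 1) and 0.0830 on log2(TPM + 0.1), and ranged from -0.185 to 0.162 with a library left out (positive without cKO 2 or Control 2). Aldoc ranged from -0.187 to 0.209 with a library left out (negative without cKO 3 or Control 2), and Sparcl1 from -0.240 to 0.0177 (positive without cKO 2). No member passed the threshold except Apoe with DESeq2 (1 member called lower); without the filter its adjusted p was 0.0695. The median of the members ranged from -0.42 to -0.29 with a library left out. Over all genes, 1 was higher and 7 lower in cKO with the main settings; the counts were 21 and 37 without a filter, 80 and 105 with DESeq2, 33 and 14 on log2(TPM + 1), and 23 higher on log2(TPM + 0.1). There were 2 higher at a mean CPM of at least 1 and 3 higher with limma-voom. With a library left out, 0 higher and 0 to 2 lower genes were called; these fits hold fewer samples, and the cause of the other differences was not tested. Replicate numbers are shared by both groups, but nothing ties them to a litter or day, and over all tested genes the deviations of same-numbered libraries had a correlation of 0.00488, although choroid plexus genes were high in both libraries numbered 2. With the replicate block no member was called, the median was -0.49 and Apoe had an adjusted p of 0.357. With 2 libraries a group, depth limits S100b (3 to 23 counts) most.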
